A study of Mus musculus with 6 samples.

Results

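The transcripts of 10 genes of the EGF receptor (ErbB) family and its ligands were followed in 4T1 cells that expressed METTL7A1 and in mock cells. They were taken from the deposited count table by gene symbol, and all 10 were among its 48587 rows: the receptor genes Egfr, Erbb2 and Erbb3, and the ligand genes Areg, Ereg, Hbegf, Btc, Tgfa, Epgn and Nrg1. All 10 are annotated as protein coding. The 4T1 line comes from a mouse mammary carcinoma, is mesenchymal-like and has almost no METTL7A1, a putative methyltransferase, and the comparison asked whether transcripts change when the protein is put back. The METTL7A1 group (3 libraries) came from cells that stably carried Mettl7a1 cDNA in the vector pBICEP-CMV-2, where the cytomegalovirus promoter drives it. The mock group (3 libraries) came from cells with the empty vector. Both were grown in serum, and the stable cells were kept under 350 µg/ml G418. Whether the stable cells were a clone or a pool is not given in the sources used here, so a difference between the groups and a difference between 2 derived lines cannot be told apart.

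The libraries held 18386780 to 28459338 counts assigned to genes. Mettl7a1 lay between 342 and 422 cpm (counts-per-million on TMM-scaled library sizes) in the METTL7A1 libraries and between 1.17 and 1.64 cpm in mock (edgeR log2 fold change 8.17, SE 0.14). Markers of mammary epithelium were present, with 1770 to 2140 cpm summed over 6 genes in mock and 1960 to 2330 cpm in METTL7A1 libraries. Of these 6, Krt7 (log2 fold change 0.50, SE 0.09) and Cldn7 (0.33, SE 0.11) were called higher (edgeR adjusted p under 0.05) and none lower. Krt8, Krt18, Epcam and Cdh1 were not called. Of all genes tested, 42.1% were called in either direction. Of the mesenchymal genes, which summed to 2690 to 3140 cpm in mock and 2490 to 3000 cpm in METTL7A1 libraries, Vim fell (log2 fold change -1.16, SE 0.11, edgeR adjusted p = 1.17e-05) and Fn1 was at 0.05 (SE 0.12). Markers of other cells were low. The 7 fibroblast markers summed to 17.5 to 19.8 cpm in mock and 24 to 26.8 cpm in METTL7A1 libraries, nearly all of it Pdgfra, with Lum at 0. The 6 leukocyte markers summed to 5.08 to 6.6 and 11.7 to 14.3 cpm, nearly all of it Cd68, with Ptprc at most 0.324 cpm and Cd3e at 0. The 4 endothelial markers summed to 0.413 to 0.644 cpm in mock and 0.808 to 0.973 cpm in METTL7A1 libraries. Pdgfra and Cd68, the only genes of these lists that could be tested, were both called higher. The mitochondrial ribosomal RNA mt-Rnr2 took 5.75% to 7.93% of the counts in mock and 8.82% to 12.5% in METTL7A1 libraries. The part of these shifts in the results on ErbB genes was not tested. In RNA of whole cultures, fewer cells with a transcript and less transcript per cell cannot be told apart.

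ErbB receptors are tyrosine kinases of the cell surface that signal as dimers. EGFR binds EGF, transforming growth factor alpha (Tgfa), amphiregulin (Areg), epigen (Epgn), betacellulin (Btc), HB-EGF (Hbegf) and epiregulin (Ereg). ERBB3 binds neuregulins such as neuregulin 1 (Nrg1) and has little kinase activity of its own, and ERBB2 has no known soluble ligand and acts as the partner of the others. The ligands are made as membrane precursors from which metalloproteases release the soluble factor. In the mammary gland the family drives the growth of ducts, and ERBB2 is a known oncogene of breast tumours.

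Erbb3 mRNA rose 2.19-fold, while the mRNA of its ligand Nrg1 fell to 56.8% of mock. Of the EGFR ligands, Areg and Btc fell to 49.3% and 41.9% of mock, and Hbegf, the most abundant by far, rose 1.25-fold. The 40 nearest abundant genes of Erbb3 and of Hbegf rose as well, by medians of 0.40 and 0.31 on the log2 scale. Hbegf did not differ detectably from its surroundings. Erbb2 and Egfr lay within their errors of mock. Ereg had no counts in any library.

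Of the 10 genes, 8 passed the abundance filter (at least 1 cpm in at least 3 libraries), and each of the 8 was above 1 cpm in all 6 libraries. The other two were Epgn and Ereg. By edgeR's quasi-likelihood test with Benjamini-Hochberg adjustment over all 13166 genes tested, 5 of the 8 differed at an adjusted p under 0.05, where 42.1% of all genes tested did. Erbb3 and Hbegf were the 2 that rose (21.1% of all genes did), and Nrg1, Areg and Btc the 3 that fell (21% of all genes did). In the same 5 genes the METTL7A1 libraries did not overlap the mock libraries, which held for 51.6% of all genes tested. The median of the absolute log2 fold change was 0.57 over the 8 genes and 0.25 over all genes tested. At the criteria of the study, an adjusted p under 0.01 with a log2 fold change beyond 1.5, 0 of the 8 were called by edgeR, DESeq2 or voom (2.48% of all genes tested were by edgeR), and 6 of the 8 had an unadjusted edgeR p under 0.05 (50.1% of all genes tested had). Read as 1.5-fold on the linear scale, the same criteria were met by 4, namely Erbb3, Nrg1, Areg and Btc, and by 13.3% of all genes tested.

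**Figure D1:**
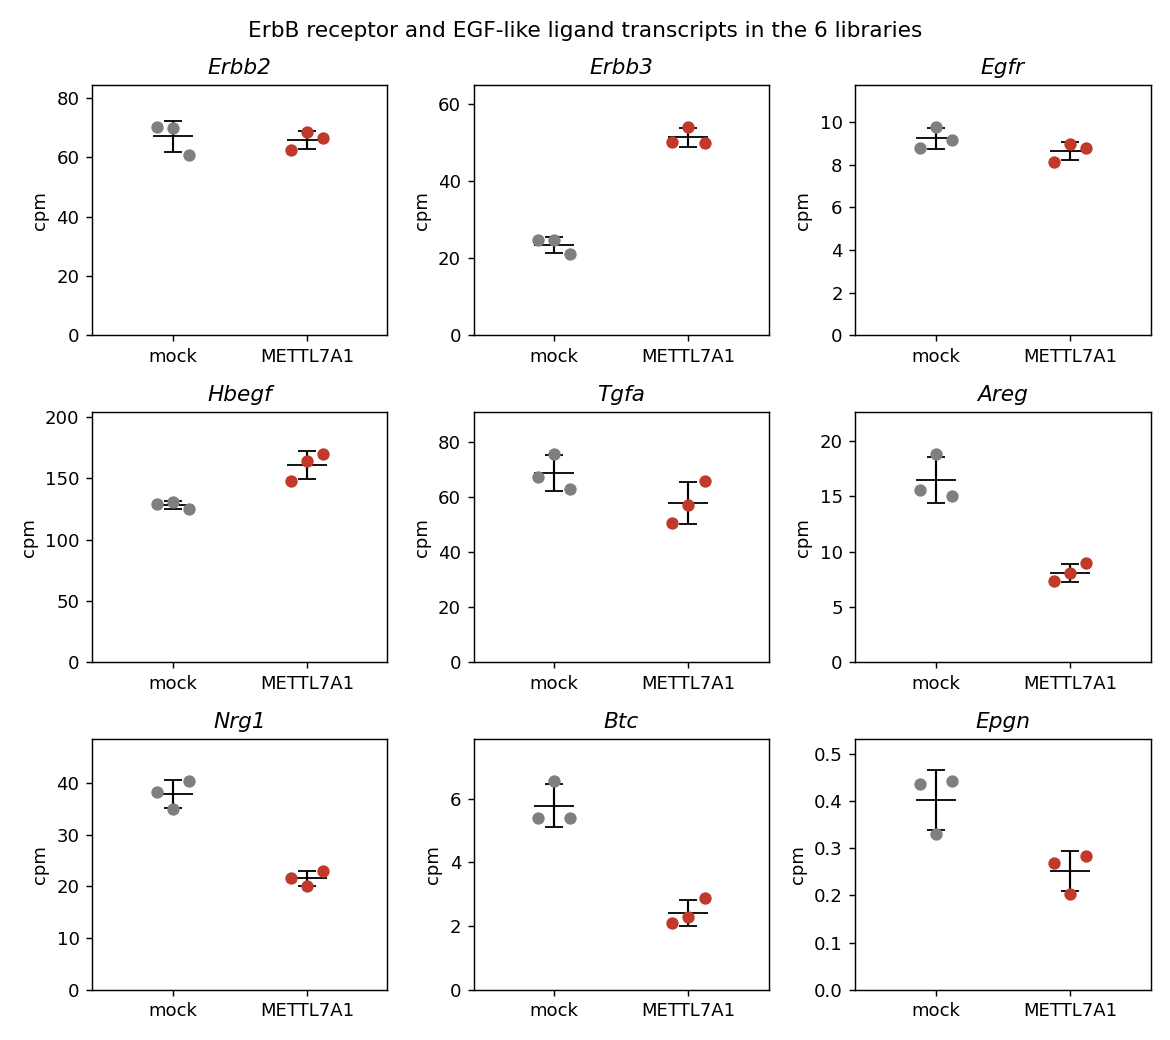
Abundance (cpm on TMM-scaled library sizes, linear axes from 0) of 9 of the genes in each of the 6 libraries. Points are libraries, with replicates 1 to 3 from left to right, and bars are the mean ± SD of 3 libraries. The groups are apart for Erbb3, Hbegf, Areg, Nrg1, Btc and Epgn, and overlap for Erbb2, Egfr and Tgfa. Epgn had only 5 to 11 counts a library and did not pass the abundance filter.

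Among the receptors, Erbb3 (build mm10, as for all positions here, chromosome 10, 128567523 to 128589652, minus strand) was at 24.6, 24.8 and 21.1 cpm in mock replicates 1 to 3 and at 50, 54.1 and 49.9 cpm in METTL7A1 replicates 1 to 3. The lowest METTL7A1 library was thus far above the highest mock library, and the spread within each group was small. The mean rose from 23.5 ± 2.06 to 51.3 ± 2.43 cpm (SD over 3 libraries), and the fitted log2 fold change, METTL7A1 over mock, was 1.13 ± 0.08 (SE, 95% interval 0.94 to 1.31, edgeR adjusted p = 2.55e-06). Erbb3 ranked at 154 of the 13166 genes by p. Its surroundings rose as well: of the 40 nearest abundant genes on the chromosome, which span 1.29 Mb, 32 were called higher and 2 lower, with a median log2 fold change of 0.40. Only 2 of these 40 rose by more than Erbb3. With the median of the neighbours taken as an offset in the fit, Erbb3 stayed higher by 0.73 on the log2 scale (edgeR adjusted p = 7.47e-05). That fit treats the median as fixed, so its p leaves out the spread of the neighbours, from -0.55 to 2.7. The part of the regional shift in the rise was not tested further.

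Erbb2 (chromosome 11, 98412470 to 98437716, plus strand), the preferred dimer partner of ERBB3, was at 70.4, 70.0 and 60.9 cpm in the mock libraries and at 62.4, 68.5 and 66.6 cpm in the METTL7A1 libraries. The groups overlapped, and the log2 fold change was -0.02 ± 0.08 (SE, 95% interval -0.19 to 0.15, edgeR adjusted p = 0.824). Egfr (chromosome 11, 16752203 to 16918158, plus strand) was low in both groups, with 8.80, 9.78 and 9.14 cpm in mock and 8.14, 8.97 and 8.80 cpm in METTL7A1 libraries. Its log2 fold change was -0.1 ± 0.11 (SE, 95% interval -0.35 to 0.15, edgeR adjusted p = 0.531). A change of Egfr outside 0.787 to 1.11-fold, or of Erbb2 outside 0.874 to 1.11-fold, lay beyond these intervals.

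Because levels of different genes can be compared only per length, counts were also expressed as cpm per kilobase of annotated exon. On this scale Erbb3 stood at 0.291, 0.295 and 0.289 of the Erbb2 level in mock replicates 1 to 3, and at 0.667, 0.659 and 0.624 in METTL7A1 replicates 1 to 3. This ratio is taken within a library and does not depend on how libraries are scaled. Erbb2 made up 73.6% to 74.2% of the summed receptor level in mock and 57.9% to 59.4% in METTL7A1 libraries. The share of Erbb3 went from between 21.3% and 21.7% to between 37.1% and 38.6%, and that of Egfr was at most 5.06% in any library. The sum over the receptors was 16.5 to 19.0 cpm per kilobase in mock and 21.5 to 23.5 in METTL7A1 libraries. The fourth receptor gene, Erbb4, had 0 counts in all 6 libraries.

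**Figure D2:**
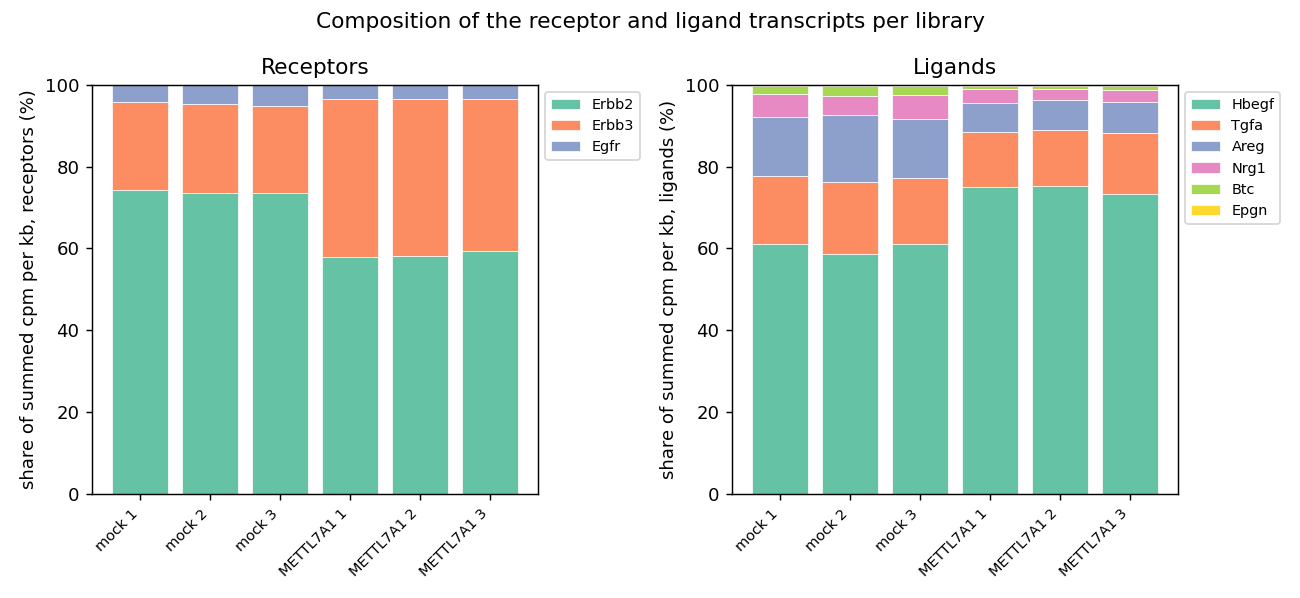
Share of each gene in the summed level (cpm per kilobase of exon) of the receptors (left) and ligands (right), stacked to 100% for each of the 6 libraries. Erbb3 takes 37.1% to 38.6% of the receptor level in METTL7A1 libraries and at most 21.7% in mock, and Hbegf 73.4% to 75.3% of the ligand level against at most 61.2%.

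Nrg1 (chromosome 8, 31814551 to 32884029, minus strand), the only neuregulin gene with more than a few cpm here, was at 38.3, 35.0 and 40.4 cpm in the mock libraries and at 21.6, 20.1 and 23.0 cpm in the METTL7A1 libraries. All METTL7A1 libraries lay below all mock libraries. The mean went from 37.9 ± 2.71 to 21.5 ± 1.46 cpm (SD over 3 libraries), or -0.82 ± 0.09 on the log2 scale (SE, 95% interval -1.01 to -0.62, edgeR adjusted p = 3.38e-05). Nrg1 went against its surroundings. Its 40 nearest abundant genes, which span 10.6 Mb, had a median log2 fold change of 0.25. Of them, 20 were called higher and 0 lower, and all 40 lay above Nrg1. With the neighbour offset the log2 fold change of Nrg1 was -1.07. The annotation lists 18 transcripts of Nrg1, and counts per gene do not say which isoforms made up the difference. Its exons share 2009 bases with Gm26578 on the other strand, whose own count never exceeded 24.

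The genes of amphiregulin and betacellulin lie in a cluster of EGF-like ligand genes on chromosome 5, in the order Epgn, Ereg, Areg and Btc. Areg, whose product binds EGFR and is needed for the growth of mammary ducts (91139599 to 91148432, plus strand), was at 15.5, 18.8 and 15.0 cpm in mock and at 7.33, 8.02 and 8.92 cpm in METTL7A1 libraries. Btc (91357261 to 91402994, minus strand), a ligand of EGFR and ERBB4, was at 5.41, 6.56 and 5.39 cpm in mock and at 2.10, 2.27 and 2.88 cpm in METTL7A1 libraries. For both genes the groups were clearly apart, with mock replicate 2 the highest of the 6 libraries. Areg changed by -1.02 ± 0.12 on the log2 scale (SE, 95% interval -1.29 to -0.75, edgeR adjusted p = 8.53e-05). For Btc the value was -1.26 ± 0.18 (SE, 95% interval -1.65 to -0.86, edgeR adjusted p = 0.000257). Per length, Areg was 6.59 to 6.79 times the level of Btc in mock and 7.33 to 8.37 times in METTL7A1 libraries.

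Over a wider region there was no common fall. The 40 nearest abundant genes of Areg, which span 10.3 Mb, had a median log2 fold change of -0.01. Of these, 12 were called higher and 8 lower, and 38 lay above Areg. For Btc 39 of 40 lay above. Within 200 kb of the cluster 3 further genes could be tested, all on the Epgn side. The chemokine gene Cxcl1 rose (log2 fold change 0.67, SE 0.08, edgeR adjusted p = 6.31e-05), whereas Mthfd2l, a mitochondrial folate enzyme gene, was at 0.04 (SE 0.09) and the chemokine gene Cxcl2 at -0.03 (SE 0.29). Farther out, the chemokine gene Cxcl3, with its midpoint at -352.5 kb from the start of Areg, fell by more than Areg (log2 fold change -1.56, SE 0.13, edgeR adjusted p = 7.42e-06), and Cxcl5, at -379.1 kb, rose (0.54, SE 0.1). These chemokine genes were named after their values were seen. No gene between Areg and Btc, which are 208.8 kb apart, had enough counts to be tested. Beyond Btc, the nearest tested gene had its midpoint 816.4 kb from the start of Areg. A fall confined to the stretch around Areg and Btc could therefore not be tested.

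**Figure D3:**
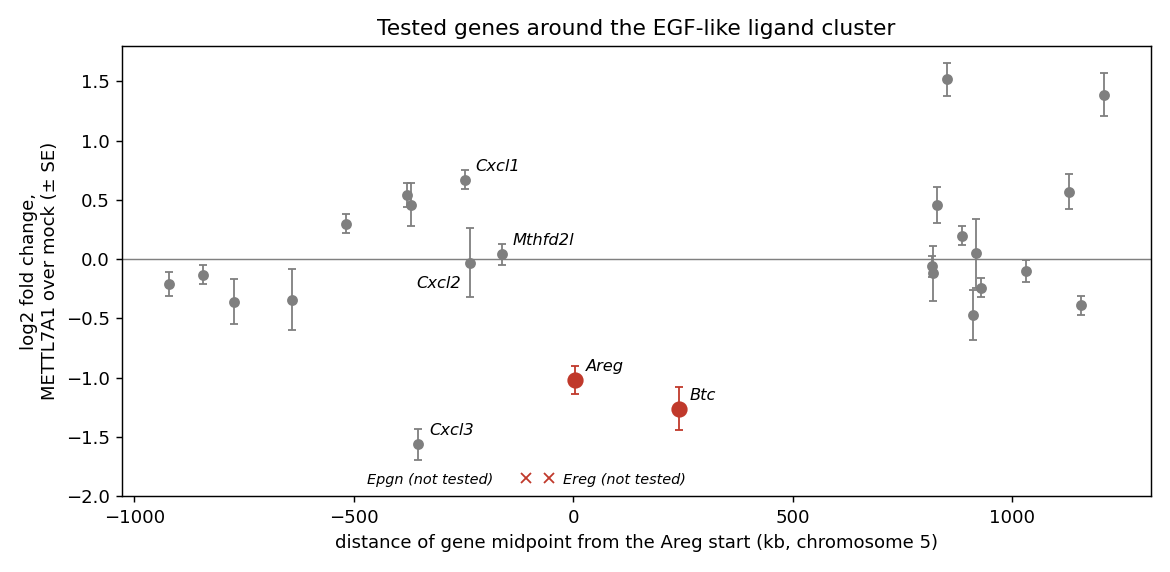
Log2 fold change (METTL7A1 over mock, ± SE) of the tested genes within 1 Mb of the ligand cluster, against the distance in kb of each gene's midpoint from the start of Areg. Areg (-1.02) and Btc (-1.26), in red, lie below the other tested genes within 200 kb, and Cxcl3 (-1.56) lies lower still at a greater distance. Crosses mark the positions of Epgn and Ereg, which were not tested.

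As Areg and Btc fell together, the 250 bases before the start of each are shown, from the RefSeq promoter table of build GRCm38.p6, which held 6 of the 10 genes (not Erbb3, Ereg, Hbegf and Nrg1). In both cases the start in RefSeq was that of the count table. They lie at chr5:91139349-91139598 (Areg, plus strand) and chr5:91402995-91403244 (Btc, minus strand), and capitals mark the motifs found.
Areg: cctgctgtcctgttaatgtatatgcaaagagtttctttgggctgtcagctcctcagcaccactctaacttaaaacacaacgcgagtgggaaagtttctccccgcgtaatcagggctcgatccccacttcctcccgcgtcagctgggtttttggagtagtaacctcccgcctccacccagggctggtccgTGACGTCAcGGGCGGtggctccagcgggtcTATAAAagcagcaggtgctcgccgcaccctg
Btc: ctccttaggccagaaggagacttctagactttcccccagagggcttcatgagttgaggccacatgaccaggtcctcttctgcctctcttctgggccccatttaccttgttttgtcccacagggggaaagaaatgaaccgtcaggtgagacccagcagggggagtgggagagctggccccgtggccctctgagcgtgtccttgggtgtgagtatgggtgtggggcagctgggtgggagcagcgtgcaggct
Letters were searched on both strands for the cyclic AMP response element TGACGTCA, the AP-1 site TGANTCA, the TATA box TATAAA and the GC box GGGCGG. The stretch before Areg held a cyclic AMP response element that began 61 bases before the start, a GC box at 52 and a TATA box at 31, none of which overlapped. These letters occurred in 1.55%, 32.7% and 12.4% of the 32851 stretches of this length in the table, and the AP-1 letters, found before neither gene, in 6.75%. The stretch before Btc held none of the 4 motifs. The G and C content was 57.2% for Areg and 59.6% for Btc. A match of letters is a description of the window and not evidence of a bound factor.

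Hbegf encodes the precursor of HB-EGF, a ligand of EGFR and ERBB4 that also binds heparan sulfate. Located on chromosome 18 (36504929 to 36515805, minus strand), it was at 129, 131 and 125 cpm in mock and at 148, 164 and 170 cpm in METTL7A1 libraries. The groups did not overlap, though METTL7A1 replicate 1 was nearer to mock than the other two. The mean went from 128 ± 3.08 to 161 ± 11.3 cpm (SD over 3 libraries), or 0.32 ± 0.07 on the log2 scale (SE, 95% interval 0.16 to 0.48, edgeR adjusted p = 0.00463). Its chromosome region rose by as much. The 40 nearest abundant genes, which span 3.35 Mb, moved by a median of 0.31 on the log2 scale, with 24 called higher and 3 lower. With the neighbour offset the log2 fold change of Hbegf was 0.01 (edgeR adjusted p = 0.943), so that Hbegf did not differ detectably from its surroundings.

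Tgfa (chromosome 6, 86195223 to 86275719, plus strand), another ligand of EGFR, was at 67.3, 75.6 and 62.7 cpm in mock and at 50.6, 57.0 and 65.7 cpm in METTL7A1 libraries. METTL7A1 replicate 3 was above mock replicate 3, so the groups overlapped. Its log2 fold change of -0.25 ± 0.1 (SE, 95% interval -0.47 to -0.02) was not called (edgeR adjusted p = 0.0727). It passed the threshold without METTL7A1 replicate 3 (-0.34, edgeR adjusted p = 0.0202) and without mock replicate 3 (-0.3, edgeR adjusted p = 0.035), and the adjusted p lay between 0.0202 and 0.325 over all alternatives.

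**Figure D4:**
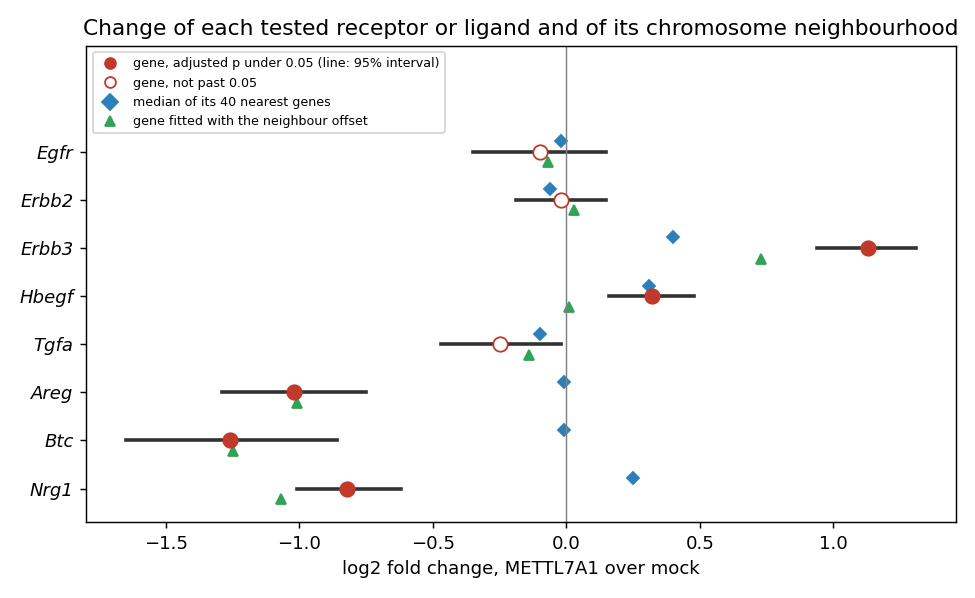
Log2 fold change (METTL7A1 over mock) of the 8 tested genes with its 95% interval, filled where the adjusted p was under 0.05. Diamonds give the median of the 40 nearest abundant genes of the chromosome and triangles the value fitted with that median as offset. The offset moves Hbegf from 0.32 to 0.01, Erbb3 from 1.13 to 0.73 and Nrg1 from -0.82 to -1.07, and leaves Areg and Btc in place.

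Epgn, the gene of epigen (chromosome 5, 91027464 to 91035215, plus strand), had 8, 8 and 11 counts in mock replicates 1 to 3 and 5, 6 and 7 in METTL7A1 replicates 1 to 3, or 0.33 to 0.443 cpm and 0.203 to 0.284 cpm. All METTL7A1 libraries lay below all mock libraries. Groups were apart, in either direction, for 51.6% of all genes tested. Tested without an abundance filter, over 28601 genes, Epgn came to -0.64 ± 0.52 on the log2 scale (SE, edgeR adjusted p = 0.467), so a difference was not detectable at this depth. Ereg, the gene of epiregulin (chromosome 5, 91074622 to 91093646, plus strand), had 0 counts in all 6 libraries. Levels below 0.105 cpm in the deepest library and 0.163 cpm in the shallowest could have been missed (3 counts of the total, counting error only).

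Ordered by level per length, Hbegf stood first in both groups, at 54.1 ± 1.3 cpm per kilobase in mock and 67.6 ± 4.77 in METTL7A1 cells (SD, n = 3 each). In mock cells Tgfa (15.1 ± 1.45), Areg (13.5 ± 1.68) and Erbb2 (13.4 ± 1.07) followed, each overlapping the next in range over the libraries. Nrg1 (4.81 ± 0.344), Erbb3 (3.91 ± 0.343), Btc (2.01 ± 0.233), Egfr (0.843 ± 0.0454) and Epgn (0.223 ± 0.0352) came next, and none of these overlapped its neighbour in the order. In METTL7A1 cells the order was Hbegf, Erbb2 (13.1 ± 0.62), Tgfa (12.8 ± 1.67), Erbb3 (8.53 ± 0.403), Areg (6.66 ± 0.657), Nrg1 (2.73 ± 0.185), Btc (0.84 ± 0.142), Egfr (0.788 ± 0.0402) and Epgn (0.14 ± 0.0238). Here Erbb2 overlapped Tgfa, and Btc overlapped Egfr. Erbb3 thus went from below Nrg1 to above Areg. The length used is that of all annotated exons of a gene, so a gene that uses a short isoform is placed too low.

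The total of the ligands per length was 86.2 to 94.4 cpm per kilobase in mock and 83.2 to 97.5 in METTL7A1 libraries, and these ranges overlapped. Its make-up was not the same. Hbegf held 58.6% to 61.2% of the ligand level in mock and 73.4% to 75.3% in METTL7A1 libraries, and Areg 14.3% to 16.4% and 7.21% to 7.53%. The ratio of Hbegf to Areg within a library was 4.26, 3.58 and 4.27 in mock replicates 1 to 3 and 10.3, 10.4 and 9.75 in METTL7A1 replicates 1 to 3. Other genes of the family were scarce. Egf had 12 to 30 counts and Nrg4 3 to 8 counts in a library, and Nrg3 had none. Nrg2 was the only member of this list of 5, with Erbb4, that could be tested, and at 1.73 ± 0.287 cpm in mock and 2.44 ± 0.327 cpm in METTL7A1 cells (SD, n = 3 each) it was not called (log2 fold change 0.47, SE 0.22, edgeR adjusted p = 0.1, unadjusted p = 0.0502).

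Around receptors and ligands, lists of pathway genes were read for their counts. All 9 genes of ligand shedding were tested and 9 were called, 4 higher and 5 lower, with a median log2 fold change of -0.2 (-0.03 over all genes tested, of which 42.1% were called). Adam8, a metalloprotease of the cell surface, rose from 60.7 ± 2.13 to 120 ± 9.92 cpm (SD over 3 libraries), or 0.99 ± 0.08 on the log2 scale (SE, edgeR adjusted p = 3.84e-06). Rhbdf2, which encodes an iRhom that escorts ADAM17 to the surface, rose from 30.1 ± 1.26 to 55.4 ± 1.82 cpm (log2 fold change 0.88, SE 0.07, edgeR adjusted p = 4.51e-06). Its paralog Rhbdf1 fell (-0.5, SE 0.09), as did Adam12 (-0.43, SE 0.06) and Adam19 (-0.4, SE 0.07). Of the principal sheddases of EGF-like ligands, named here after their values were seen, Adam10 rose (0.45, SE 0.08, edgeR adjusted p = 0.00105) and Adam17 was lower (-0.22, SE 0.07, edgeR adjusted p = 0.0303). The call of Adam17 was lost in 5 of the 6 fits that left out a library, all but the fit without mock replicate 3, and with replicate number as a block (edgeR adjusted p = 0.0627). Adam9 (0.25, SE 0.08) and Adam15 (-0.2, SE 0.07) were lost in 4 and 5 of these 6 fits and also with the block. The list thus had 6 to 8 called genes when a library was left out, where 29.1% to 44.5% of all genes were called. With the block it had 6, where 36.5% of all genes were called. With the neighbour offset Adam17 turned to 0.34 (edgeR adjusted p = 0.00404), as its 40 nearest genes on chromosome 12 had a median of -0.56.

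Of the 15 adaptors and proximal effectors, all tested, 4 were called (26.7%, against 42.1% of all genes tested), 2 higher and 2 lower. Their median log2 fold change was 0.05. Gab1, the docking protein that links ErbB receptors to PI3 kinase, fell from 6.47 ± 1.22 to 2.86 ± 0.551 cpm (SD over 3 libraries), or -1.17 ± 0.2 on the log2 scale (SE, edgeR adjusted p = 0.000717). Pik3r1, a regulatory subunit of PI3 kinase, fell by 0.46 on the log2 scale (SE 0.08). Grb7, an adaptor of ErbB receptors encoded near Erbb2, rose by 0.29 (SE 0.08), and Shc1, an adaptor between receptors and Ras, by 0.23 (SE 0.06). The call of Shc1 was lost without METTL7A1 replicate 2 (edgeR adjusted p = 0.0748, range over all alternatives 0.0101 to 0.0748). Grb2, Sos1 and Src lay between 0.04 and 0.06 with standard errors of 0.07 to 0.11 and were not called.

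Of the 18 genes of receptor inhibitors and traffic, all tested, 8 were called (44.4%, near the 42.1% of all genes tested), 5 higher and 3 lower. Their median log2 fold change was 0.07. Cblb, a ubiquitin ligase of activated receptors, rose from 15.2 ± 2.29 to 23.5 ± 1.1 cpm (SD over 3 libraries), or 0.63 ± 0.11 on the log2 scale (SE, edgeR adjusted p = 0.000968). Rnf41, whose product (NRDP1) is a ubiquitin ligase that lowers ERBB3, rose by 0.47 (SE 0.07, edgeR adjusted p = 0.000262). It lies 126.1 kb from Erbb3 and shares 39 of its 40 neighbours with it, and with the neighbour offset its log2 fold change was 0.06 (edgeR adjusted p = 0.516). Ubash3b, a phosphatase gene, and Epn1, a gene of endocytosis, were lower, at log2 fold changes of -0.4 ± 0.08 and -0.41 ± 0.09 (SE). Errfi1, a feedback inhibitor of EGFR named after its values were seen, was at 0.24 (SE 0.08, edgeR adjusted p = 0.0286), and its call was lost in 4 of 6 fits that left out a library (those without METTL7A1 replicate 2 or 3 or mock replicate 1 or 3) and with the block (edgeR adjusted p = 0.0661). The count of 8 went to 5 without METTL7A1 replicate 2, where 29.1% of all genes were called, and to 5 with the neighbour offset, where 31.5% were. With the offset the calls of Lrig3, Socs4 and Stam were lost as well as that of Rnf41. The 5 called with it thus included a gene not called in the main fit.

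**Figure D5:**
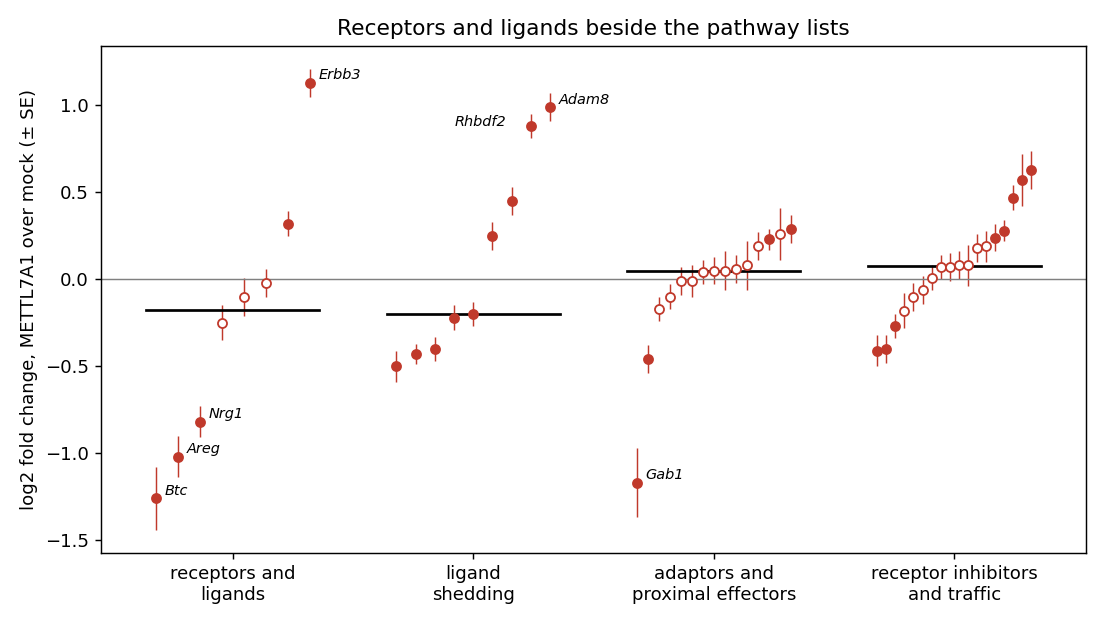
Log2 fold change (METTL7A1 over mock, ± SE) of each tested gene of the receptors and ligands and of 3 pathway lists, sorted within a list. Filled points had an adjusted p under 0.05 and horizontal lines are the median of a list. The medians lie between -0.2 and 0.07, with Erbb3 and Adam8 at the top and Btc and Gab1 at the bottom.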

How the data were processed

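Total RNA of 4T1 cells was depleted of ribosomal RNA and sequenced in 6 libraries, 3 of each group, as named by the sample titles. The authors trimmed reads with BBDuk, aligned them to mm10 with STAR 2.5.3a, counted them per gene with featureCounts and deposited raw counts and the exon length of each gene. Handling of strand is not given in the sources used here. Every count column could be assigned to a library. Symbols matched GENCODE M21 for 46484 of 48587 genes (95.7%).

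Genes with at least 1 cpm in at least 3 libraries (13166) were scaled by TMM and compared by the quasi-likelihood test of edgeR 4.0.16 (R 4.3.3) without covariates, and p values were Benjamini-Hochberg adjusted across them. The SE is the log2 fold change divided by the root of F. Neighbours are the 40 nearest genes of a chromosome with an average log2 cpm over 2. Their median enters the offset fits as a fixed value, so p values from these fits leave out the spread among neighbours. With 3 libraries a group, p values measure the spread between these libraries only. The test was tried on simulated data first. Members and lists were chosen with earlier results of these data known. All 10 members are named, and of each pathway list the 4 called genes with the smallest p. Cxcl1, Cxcl2, Cxcl3, Cxcl5, Mthfd2l, Adam9, Adam10, Adam15, Rhbdf1, Adam17, Errfi1, Lrig3, Socs4, Stam, Grb2, Sos1 and Src were added after their values were seen. Alternatives included DESeq2 1.42.0 and voom of limma 3.58.1.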

Additional observations from a re-analysis of the deposited data

How the results depend on the processing

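The count of ErbB receptor and ligand genes called was 5 under RLE and upper quartile scaling, without the 20 most abundant genes and with no abundance filter. It was also 5 with at least 10 counts in every library, DESeq2 and voom, and 5 or 6 with each library omitted. The share called of all genes was 20.9% with no abundance filter and 39.7% to 42.8% under the other settings named. With a library omitted it was 29.1% to 44.5%. The neighbour offset left 1 gene called higher, Erbb3, since Hbegf went to 0.01. At the criteria of the study the count of 0 became 4 when the threshold was read as 1.5-fold. The share of all genes tested went from 2.48% to 13.3% with the same change. Called receptor inhibitor and traffic genes went from 8 to 5 with the neighbour offset and ranged from 5 to 10 with a library left out, while the share called of all genes went from 42.1% to 31.5% with the offset and to 29.1% without METTL7A1 replicate 2, the library behind the count of 5. Adam17 turned from -0.22 to 0.34 with the offset, as its 40 nearest genes had a median of -0.56. The cause of that regional shift was not tested. Levels per length moved by less than 1 SD with unscaled totals.

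Replicate numbers did not pair the libraries (correlations of deviations -0.16, 0.23 and -0.39). With replicate number as a block, 5 receptor and ligand genes were called, Hbegf with the largest adjusted p (edgeR adjusted p = 0.0159), and Erbb3 stayed at 1.13. Called genes under the block were 6 for shedding, 4 for adaptors and 7 for inhibitors and traffic, where 36.5% of all genes were called.

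At 5 to 11 counts a library, Epgn was tested only without the abundance filter, with an SE of 0.52 on the log2 scale.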

Other observations

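Erbb3 had the smallest p of the ErbB genes, and the genes whose log2 cpm followed it most closely over the 6 libraries were Tap2 on chromosome 17 (Pearson r = 0.9997), Cgnl1 on chromosome 9 (r = 0.9996) and Aifm2 on chromosome 10 (r = 0.9992). Their log2 fold changes were 1.21, 0.52 and 1.36. These values are a description: the 6 libraries fall into 2 groups, so that r mostly measures how cleanly a gene separates them, and 168 of 13165 other tested genes had an r above 0.99.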
